A study of Mus musculus with 36 samples.

Results

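The expression of 10 genes of the inflammasome, of pyroptosis and of necroptosis was followed across 36 RNA-seq libraries of the mouse macrophage cell line RAW264.7. The members were taken by name from both tables of counts, and all 10 of 10 names were found among the 49568 gene names that each table lists. They were the sensors Nlrp3, Aim2 and Nlrc4, the adaptor Pycard, the caspases Casp1, Casp4 and Casp8, the pore former Gsdmd, and the necroptosis kinase Ripk3 with its effector Mlkl. In the IFNγ series, one group was labelled PBS, one received the peptide 65–79*SE at 100 µg/ml and one the peptide 65–79*PE at 100 µg/ml, under M1 polarizing conditions (IFNγ at 5 ng/ml). The Il-4 series had the same groups under M2 polarizing conditions (Il-4 at 5 ng/ml). Both are 15-residue peptides copied from human HLA-DRβ chains, the first with the shared epitope of rheumatoid arthritis risk alleles and the second with a protective epitope. RNA was taken at 72 h, with the medium refreshed at 48 h, and each of the 6 groups held 6 libraries. Replicates 1–3 and replicates 4–6 carry names of different schemes, so they are treated as separate label sets of 3 libraries a group and shown apart. The sources do not settle whether the PBS cells received the cytokine. Their libraries showed no response to it, as given below, and a contrast against PBS therefore holds cytokine and peptide together.

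An inflammasome is assembled when a sensor such as NLRP3 or AIM2 meets a danger signal and polymerizes the adaptor ASC, the product of Pycard, which in turn brings in pro-caspase-1. Active caspase-1 matures the interleukins IL-1β and IL-18 and cuts gasdermin D, whose released fragment opens pores in the plasma membrane, a lytic death called pyroptosis. Mouse Casp4 encodes caspase-11, which binds cytosolic endotoxin and cuts gasdermin D without a sensor of that kind. Necroptosis is a separate lytic route in which RIPK3 phosphorylates MLKL, and caspase-8 holds it in check. RAW264.7 cells are widely described as lacking ASC, which was checked here in every library.

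Libraries of the IFNγ series held between 20.7 and 63.2 M counts, and those of the Il-4 series between 17.05 and 30.6 M. A count of 0 allows up to 3 counts at 95% confidence, for counting error only. That limit is between 0.0475 and 0.176 CPM (counts per M) depending on the library, taken per M of the library total. All other CPM values are scaled by TMM size factors, from 0.812 to 1.16, so they compare with this limit only roughly. Of 8 macrophage markers, 7 reached 1 CPM and Mertk stayed under 0.417 CPM, and markers of T cells, B cells, neutrophils and epithelium did not reach 1 CPM in any library. Of the fibroblast and endothelial lists, 1 marker each did so, in the IFNγ series. The cytokine response was read from lists of known target genes, as the mean log2(CPM + 1) of the list. For 12 IFNγ targets this mean was 2.27 to 2.29 in PBS replicates 1–3 and 2.31 to 2.37 in PBS replicates 4–6, against 6.46 to 6.66 in all 6 libraries of 65–79*PE and 6.37 to 6.51 in 65–79*SE replicates 1–3. The 3 libraries labelled 65–79*SE with IFNγ, replicates 4–6, lay at 2.22 to 2.33, at the level of PBS. They go against their label, and every contrast that includes them is given here apart from replicates 1–3. For 11 Il-4 targets the mean was 0.302 to 0.426 in the PBS libraries of the Il-4 series and 1.61 to 2.33 in its peptide libraries, so no Il-4 library went against its label in this way. The PBS libraries of the IFNγ series lay at 0.341 to 0.460 for these Il-4 targets. Those of the Il-4 series lay at 2.23 to 2.49 for the IFNγ targets. The PBS libraries of both series thus showed neither cytokine response.

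A group of 5 members, Nlrp3, Casp1, Casp4, Ripk3 and Mlkl, rose together in the IFNγ series, as described below, and Nlrp3 was the single member called lower in the Il-4 series. Their promoters are therefore shown first. RefSeq windows on GRCm38.p6, of 250 bases before and 50 bases after the start of transcription, were matched for 9 of the 10 members (Gsdmd was not matched) at 11 start sites. Each line gives 1 window from 5′ to 3′ on the strand of the gene, and capitals mark a match to a motif that was searched on both strands.

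Casp1: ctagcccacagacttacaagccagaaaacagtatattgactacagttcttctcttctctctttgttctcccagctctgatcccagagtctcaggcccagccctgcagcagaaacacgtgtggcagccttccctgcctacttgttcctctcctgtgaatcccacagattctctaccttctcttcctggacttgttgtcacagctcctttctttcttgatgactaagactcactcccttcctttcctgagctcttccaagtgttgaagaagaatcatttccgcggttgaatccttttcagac
Casp4: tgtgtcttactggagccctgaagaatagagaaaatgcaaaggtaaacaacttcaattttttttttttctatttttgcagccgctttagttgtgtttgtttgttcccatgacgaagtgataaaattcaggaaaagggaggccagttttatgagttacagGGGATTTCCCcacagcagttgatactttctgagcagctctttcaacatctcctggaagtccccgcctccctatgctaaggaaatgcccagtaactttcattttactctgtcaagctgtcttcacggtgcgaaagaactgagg
Nlrp3, upstream start: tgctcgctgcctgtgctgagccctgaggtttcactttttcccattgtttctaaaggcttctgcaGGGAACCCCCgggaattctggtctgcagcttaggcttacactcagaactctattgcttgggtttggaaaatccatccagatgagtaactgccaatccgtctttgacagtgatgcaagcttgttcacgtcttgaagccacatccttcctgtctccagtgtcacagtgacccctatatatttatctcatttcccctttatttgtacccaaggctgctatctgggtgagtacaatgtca
Nlrp3, downstream start: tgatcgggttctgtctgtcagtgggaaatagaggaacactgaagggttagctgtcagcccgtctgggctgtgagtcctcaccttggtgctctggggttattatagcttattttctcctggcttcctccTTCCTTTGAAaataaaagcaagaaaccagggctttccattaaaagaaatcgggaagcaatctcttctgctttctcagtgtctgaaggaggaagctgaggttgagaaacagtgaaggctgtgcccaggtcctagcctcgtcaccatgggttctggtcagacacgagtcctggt
Ripk3: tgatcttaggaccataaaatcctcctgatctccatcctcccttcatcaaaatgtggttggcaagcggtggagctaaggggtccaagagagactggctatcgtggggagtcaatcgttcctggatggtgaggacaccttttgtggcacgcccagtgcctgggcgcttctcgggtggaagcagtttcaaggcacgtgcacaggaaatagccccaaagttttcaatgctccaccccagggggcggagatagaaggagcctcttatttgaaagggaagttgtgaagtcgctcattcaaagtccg
Mlkl: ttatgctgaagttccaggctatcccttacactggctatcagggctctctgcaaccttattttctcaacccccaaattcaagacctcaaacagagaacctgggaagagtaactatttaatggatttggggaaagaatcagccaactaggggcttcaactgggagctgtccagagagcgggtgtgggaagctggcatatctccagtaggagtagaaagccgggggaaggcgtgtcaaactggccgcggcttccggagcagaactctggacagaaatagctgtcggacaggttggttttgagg

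The windows lie at chr9:5298267-5298566 for Casp1 and chr9:5308599-5308898 for Casp4, which are neighbours on the plus strand of chromosome 9. Those of Nlrp3 lie at chr11:59541319-59541618 and chr11:59542436-59542735 on the plus strand, and those of Ripk3 and Mlkl at chr14:55788808-55789107 and chr8:111338156-111338455 on the minus strand. The letters searched were TTC and GAA with 4 free bases between them (a STAT6 type site), GAAA and GAAA with 2 free bases (the core of the interferon-stimulated response element) and GGGA and CC with 4 free bases (a κB site). No 2 matches overlapped. In Casp4 the match was to the κB letters, with its first base 92 bases before the start, and the other annotated start of Casp4 has the same match at 103 bases before it. The upstream window of Nlrp3 held κB letters 186 bases before its start and the downstream window held STAT6 letters 122 bases before its own. Casp1, Ripk3 and Mlkl had no match to any of the 3 motifs, nor did Pycard, Casp8, Aim2 or Nlrc4. Of all 32851 promoter windows of this length, 20.73% held the κB letters, 6.953% the STAT6 letters and 3.443% the core of the response element. A match is a description of the letters and a missing match says only that they are not in this window.

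Pycard was practically absent from these cells. It is annotated on chromosome 7 from 127989708 to 127993867 on the minus strand (GRCm38), with 3800 bases of exon. All 18 libraries of the Il-4 series had 0 counts of it. Counts appeared in 3 of the 18 IFNγ libraries, 1 of each of 65–79*SE replicates 1–3, 65–79*SE replicates 4–6 and 65–79*PE replicates 4–6, and the highest was 2. Summed over all 36 libraries there were 4 counts among 1031 M, and the highest single value was 0.0646 CPM. Thus 33 of the 36 libraries had 0 counts, and the reads in the other 3 were too few to show expression of Pycard in any group at this depth. Reads were counted on both sides of it. Prss36, on one side, had a median of 49.5 counts per library and Itgam, a macrophage integrin 2 genes away on the other side, a median of 5000.5. Trim72, between Pycard and Itgam, and Prss8, beyond Prss36, had a median of 0. The exons of Pycard share 485 bases with Gm45205, a gene annotated on the opposite strand, and the strand option of the counting is not stated, so a count of either could belong to the other. Pycard did not pass the filter on low counts in either series and entered no test, and every other member passed in both, 9 of 10.

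**Figure D1:**
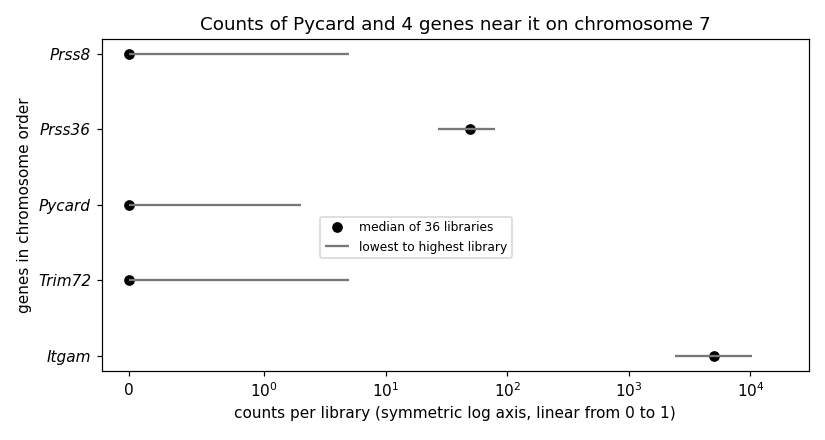
Counts per library of Pycard and of 4 genes near it, in chromosome order, on a symmetric log axis that is linear from 0 to 1; points are medians and lines run from the lowest to the highest of 36 libraries. Pycard never exceeds 2 counts, whereas Prss36 ranges from 27 to 79 and Itgam from 2392 to 10255.

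The remaining 9 members were all expressed. Levels between genes are compared per kilobase of exon. In PBS replicates 1–3 of the IFNγ series the mean level was highest for Gsdmd at 33.8 CPM per kilobase and next for Casp1 at 24.2. Ripk3 at 14.5 and Casp8 at 14.0 followed, and these neighbours in the order did not differ beyond their spread. Aim2 stood at 11.7, then came Casp4 at 7.37 and Mlkl at 7.13, which again did not differ beyond their spread, and Nlrp3 at 4.32. Nlrc4, the sensor that works with NAIP proteins against bacterial flagellin, was lowest at 0.535 CPM per kilobase. The pore former and the caspase of pyroptosis were thus the most abundant members here, while the adaptor was at 0.

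The level of several members differed between the label sets within the PBS group. For Gsdmd the PBS libraries of the IFNγ series held 80.1, 81.3 and 79.7 CPM in replicates 1–3 and 56.4, 60.1 and 51.7 CPM in replicates 4–6. The Il-4 series gave PBS values of 108, 126 and 118 CPM in replicates 1–3 against 81.2, 76.5 and 76.8 CPM in replicates 4–6. In both series the label sets did not overlap for this gene. Ripk3 had the same order, with PBS means of 33.3 ± 2.35 against 21.2 ± 2.00 CPM (SD, n = 3 and 3) in the IFNγ series and 68.8 ± 6.57 against 49.4 ± 4.84 CPM in the Il-4 series. Mlkl had the opposite order in the IFNγ series, 16.4 ± 1.12 against 29.9 ± 4.67 CPM. These shifts between label sets were not tested, and all contrasts below are taken within a label set.

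In the IFNγ series, 5 of the 9 members tested were higher with IFNγ and 65–79*PE than in PBS in both label sets, namely Nlrp3, Casp1, Casp4, Ripk3 and Mlkl. This contrast holds the IFNγ response and the peptide together, so they cannot be told apart in it. A gene is called at an adjusted p under 0.05 and a fold change over 1.5 (edgeR quasi-likelihood test, Benjamini-Hochberg adjustment over all 16845 genes tested). In replicates 1–3, 8.38% of all genes were called higher and 10.1% lower, and 5 members were called higher and 0 lower. Replicates 4–6 had 6.4% of all genes higher and 4.77% lower, and again 5 members were higher and 0 lower. The median log2 fold change of the members tested was 0.72 and 0.63 in the 2 label sets, beside -0.04 and 0.00 over all genes. Aim2, Nlrc4, Gsdmd and Casp8 were not called in either label set. In bulk libraries such as these, more cells expressing a gene and more RNA per cell cannot be told apart.

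The peptide 65–79*SE gave a different account in each label set. In replicates 1–3, 5 members were again called higher than PBS, with 11% of all genes called higher, and 0 were called lower, with 10.2% of all genes lower. In replicates 4–6, the libraries without the IFNγ response, 0 members were called higher and 1, Casp4, was called lower, where 0.873% of all genes were higher and 1.16% lower. There 4 members had an unadjusted p under 0.05, and DESeq2 also called Casp4 alone. The difference between the label sets passed an adjusted p of 0.05 for 7 members, Nlrp3, Casp1, Casp4, Casp8, Gsdmd, Ripk3 and Mlkl, and for 35.7% of all genes. That of Gsdmd, -0.28 ± 0.10 (edgeR adjusted p = 0.028), was the least secure, with an adjusted p from 0.069 to 0.091 without replicate 1, 2, 3 or 5 and without the low count filter, while that of Nlrc4, 0.78 ± 0.31 (edgeR adjusted p = 0.057), passed without replicate 2 or 4, without the filter and in DESeq2 (adjusted p from 0.031 to 0.044). For 65–79*PE against PBS it passed for 0 members by edgeR and by DESeq2, with 3 at an unadjusted p under 0.05, and for 11.5% of all genes.

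**Figure D2:**
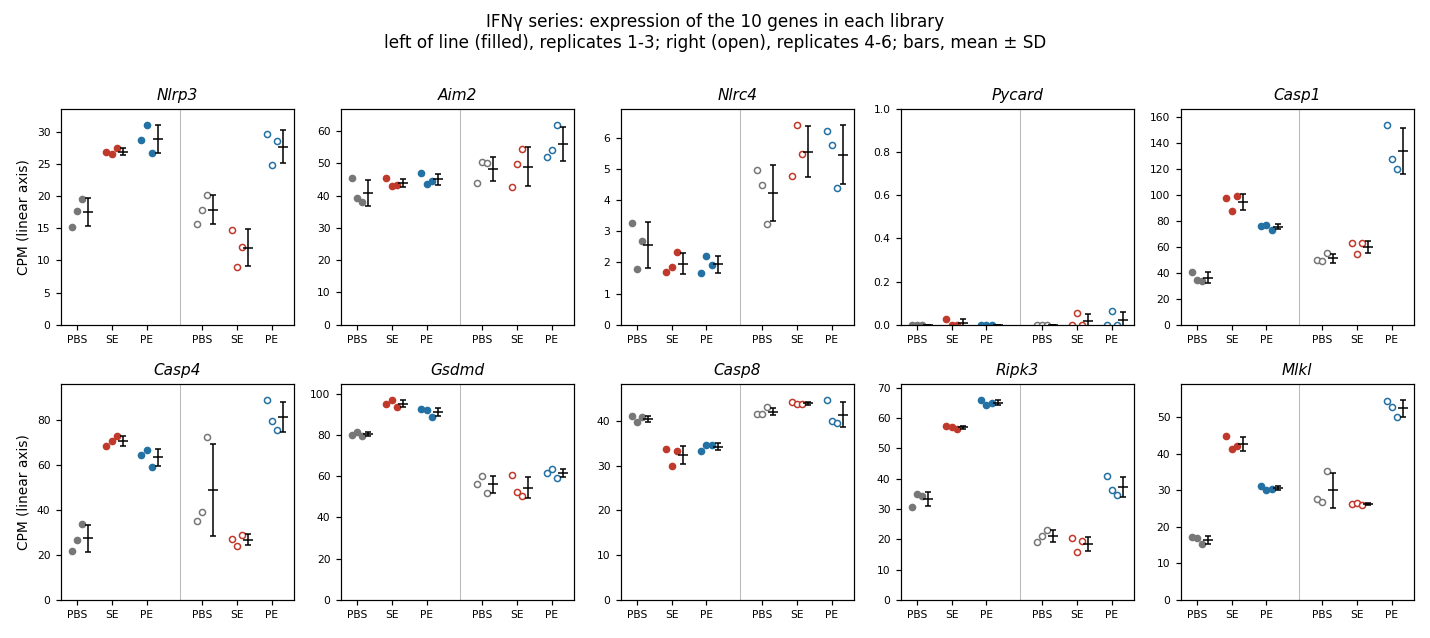
CPM of each of the 10 genes in each of the 18 libraries of the IFNγ series, on linear axes from 0, for PBS (grey), 65–79*SE (red) and 65–79*PE (blue); filled points left of the line are replicates 1–3, open points right of it replicates 4–6, and bars are the mean ± SD of 3 libraries. For Casp1, Casp4, Nlrp3, Ripk3 and Mlkl the 65–79*PE libraries lie above PBS on both sides of the line and the 65–79*SE libraries do so only on the left, while Pycard stays at or near 0.

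Casp1, the caspase that every canonical inflammasome activates, lies on chromosome 9 from 5298517 to 5307265. In the PBS libraries it was at 40.8, 34.4 and 33.3 CPM in replicates 1–3, where 65–79*SE libraries held 97.3, 87.5 and 98.9 CPM and 65–79*PE libraries 76.4, 77.2 and 73.4 CPM. All 6 peptide libraries of this label set lay above all 3 PBS libraries. The log2 fold change was 1.39 ± 0.10 (SE) for 65–79*SE, a fold of 2.61, and 1.06 ± 0.10 for 65–79*PE, a fold of 2.09 (edgeR adjusted p = 5.0e-10 and 3.4e-08, n = 3 and 3). Replicates 4–6 had PBS libraries at 49.7, 48.8 and 55.3 CPM, the 65–79*PE libraries at 154, 128 and 120 CPM and the 65–79*SE libraries at 62.7, 54.9 and 62.98 CPM. Here the 65–79*PE libraries stood clear of both other groups, whose ranges touched. The rise with 65–79*PE was 1.38 ± 0.09 (edgeR adjusted p = 7.7e-10), while the value for 65–79*SE was 0.23 ± 0.09 (edgeR adjusted p = 0.18).

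Casp4, the endotoxin sensor caspase of the noncanonical pathway, is the next gene downstream, from 5308828 to 5336783 on the same strand. Replicates 1–3 held 21.8, 26.6 and 33.6 CPM in PBS, 68.7, 70.6 and 72.9 CPM with 65–79*SE and 64.6, 66.6 and 59.3 CPM with 65–79*PE. No peptide library overlapped PBS, and the log2 fold changes were 1.37 ± 0.19 and 1.22 ± 0.19 (edgeR adjusted p = 7.3e-06 and 3.8e-05). Replicates 4–6 held 35.3, 39.0 and 72.7 CPM in PBS, 27.2, 24.1 and 28.9 CPM with 65–79*SE and 89.0, 79.8 and 75.7 CPM with 65–79*PE. One PBS library, replicate 6, was thus nearly as high as the lowest 65–79*PE library, and Casp4 had the widest spread of all members in this group. The log2 fold change was 0.73 ± 0.19 for 65–79*PE (edgeR adjusted p = 0.0060) and -0.87 ± 0.19 for 65–79*SE (edgeR adjusted p = 0.015). Both calls rest on single replicate numbers. Without replicate 6 of every group the fall with 65–79*SE was -0.56 (adjusted p = 0.093), and in a fit of these 9 libraries alone it was -0.87 (adjusted p = 0.073). The rise with 65–79*PE was 0.46 (adjusted p = 0.15) without replicate 4 and 0.60 (adjusted p = 0.080) without replicate 5.

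Nlrp3, the sensor that needs transcriptional priming before it can be activated, is on chromosome 11 from 59541568 to 59566956. Per kilobase it was lower than the 3 caspases in the PBS libraries of both label sets. In replicates 1–3 its PBS libraries were at 15.3, 17.8 and 19.6 CPM, against 26.8, 26.5 and 27.5 CPM with 65–79*SE and 28.8, 31.1 and 26.7 CPM with 65–79*PE. Again no peptide library overlapped PBS. These gave log2 fold changes of 0.62 ± 0.13 and 0.72 ± 0.13 (edgeR adjusted p = 5.3e-04 and 1.4e-04), the first of which was 0.53 (adjusted p = 0.017) without replicate 1 and so under a fold of 1.5. Values in replicates 4–6 were 15.6, 17.8 and 20.2 CPM in PBS, 14.8, 9.05 and 12.1 CPM with 65–79*SE and 29.7, 24.9 and 28.5 CPM with 65–79*PE. All 65–79*SE libraries lay below all PBS libraries and all 65–79*PE libraries above them. The log2 fold change was 0.63 ± 0.13 for 65–79*PE (edgeR adjusted p = 9.0e-04), or 0.49 (adjusted p = 0.021) without replicate 4. For 65–79*SE it was -0.57 ± 0.14 (edgeR adjusted p = 0.021), just under the fold of 1.5, and -0.84 (adjusted p = 0.0041) without replicate 4, which passed it.

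Ripk3, the kinase at the centre of the necrosome, lies on chromosome 14 from 55784995 to 55788865 on the minus strand. Its replicates 1–3 were tight, at 30.6, 35.1 and 34.2 CPM in PBS, 57.4, 57.1 and 56.5 CPM with 65–79*SE and 65.9, 64.2 and 65.1 CPM with 65–79*PE, and the 3 groups did not overlap. Replicates 4–6 were lower throughout, at 19.2, 21.2 and 23.2 CPM in PBS, 20.3, 15.7 and 19.3 CPM with 65–79*SE and 40.9, 36.1 and 34.5 CPM with 65–79*PE. The rise with 65–79*PE was nevertheless of similar size in both label sets, 0.97 ± 0.09 and 0.81 ± 0.09 on the log2 scale (edgeR adjusted p = 4.1e-08 and 9.9e-07), and its difference between them was -0.16 ± 0.13 (edgeR adjusted p = 0.46). With 65–79*SE the values were 0.78 ± 0.09 (edgeR adjusted p = 5.1e-07) and -0.19 ± 0.09 (edgeR adjusted p = 0.27).

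Mlkl, the membrane-lysing target of RIPK3, lies on chromosome 8 from 111311797 to 111338177 on the minus strand. Replicates 1–3 held 17.2, 16.9 and 15.1 CPM in PBS, 44.8, 41.2 and 42.1 CPM with 65–79*SE and 31.1, 29.9 and 30.4 CPM with 65–79*PE. The 3 groups were fully separated, with 65–79*SE on top. The log2 fold changes against PBS were 1.38 ± 0.09 and 0.89 ± 0.09 (edgeR adjusted p = 1.8e-10 and 1.3e-07). Replicates 4–6 held 27.7, 26.8 and 35.3 CPM in PBS, 26.2, 26.6 and 26.0 CPM with 65–79*SE and 54.5, 52.7 and 50.002 CPM with 65–79*PE. Only the 65–79*PE libraries stood above PBS there, by 0.80 ± 0.09 (edgeR adjusted p = 5.0e-07), and the value for 65–79*SE was -0.19 ± 0.09 (edgeR adjusted p = 0.24).

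None of the other tested members was called against PBS in this series. Gsdmd, on chromosome 15 from 75862327 to 75867408, ranged from 50.5 to 96.9 CPM over the 18 libraries, mostly between label sets, and within them its log2 fold changes against PBS were 0.24 and 0.18 in replicates 1–3 and -0.04 and 0.13 in replicates 4–6, with the SE and the PE peptide in that order. The values in replicates 1–3 passed the adjusted p (0.0066 and 0.041, edgeR) under the fold of 1.5. Casp8, on chromosome 1 from 58795374 to 58847503, was at 40.5 ± 0.67 CPM in PBS replicates 1–3, 32.3 ± 2.03 with 65–79*SE and 34.2 ± 0.79 with 65–79*PE. Both values passed the adjusted p (2.9e-04 and 0.0042, edgeR) at log2 fold changes of -0.33 and -0.24, which are under the fold of 1.5. In replicates 4–6 its values against PBS were 0.06 and -0.03. Aim2, the cytosolic DNA sensor, on chromosome 1 from 173350879 to 173466040, ranged from 38.0 to 61.8 CPM with log2 fold changes between 0.03 and 0.22 against PBS. Nlrc4, on chromosome 17 from 74425438 to 74459142, never exceeded 6.40 CPM and its log2 fold changes against PBS were -0.39 and -0.41 in replicates 1–3 and 0.38 and 0.36 in replicates 4–6, none of them called, though the value of -0.41 became -0.72 (adjusted p = 0.043) without replicate 2.

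The direct contrast of the peptides asks whether the sequence of the epitope, at the same dose and time, changed a member. In the IFNγ series, 0 of 9 members were called in replicates 1–3 by edgeR or DESeq2, with 3 at an unadjusted p under 0.05, where 4.1% of all genes were higher and 1.23% lower with 65–79*SE. For 2 members the adjusted p passed there below a fold of 1.5. Mlkl was higher with 65–79*SE by 0.49 (0.32 to 0.66, 2 SE to either side, edgeR adjusted p = 4.6e-04) and Casp1 by 0.32 (0.14 to 0.51, edgeR adjusted p = 0.020). For the others the interval of the difference was -0.35 to 0.15 for Nlrp3, -0.21 to 0.53 for Casp4, -0.36 to -0.02 for Ripk3, -0.07 to 0.20 for Gsdmd, -0.21 to 0.05 for Casp8, -0.22 to 0.15 for Aim2 and -0.45 to 0.48 for Nlrc4. In replicates 4–6, 5 members were lower with 65–79*SE, beside 8.1% of all genes, and 0 were higher, beside 5.76% of all genes. They were Casp4 at -1.60 ± 0.20, Nlrp3 at -1.20 ± 0.14, Casp1 at -1.15 ± 0.09, Ripk3 at -1.003 ± 0.09 and Mlkl at -0.996 ± 0.09. The contrast differed between label sets for these 5 members and for 28.8% of all genes. It sets libraries with the IFNγ response against libraries without it in replicates 4–6, so peptide and response cannot be told apart there.

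Pooling the label sets, with the set as a term, gave 1 member called for 65–79*SE against PBS, Casp1 at 0.87 (edgeR adjusted p = 0.017), beside 3.5% of all genes, and 1 for 65–79*SE against 65–79*PE, Nlrp3 at -0.60 (edgeR adjusted p = 0.048), beside 3.06% of all genes. The pooled 65–79*SE group joins libraries with and without the IFNγ response, so peptide and response cannot be told apart in either value.

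**Figure D3:**
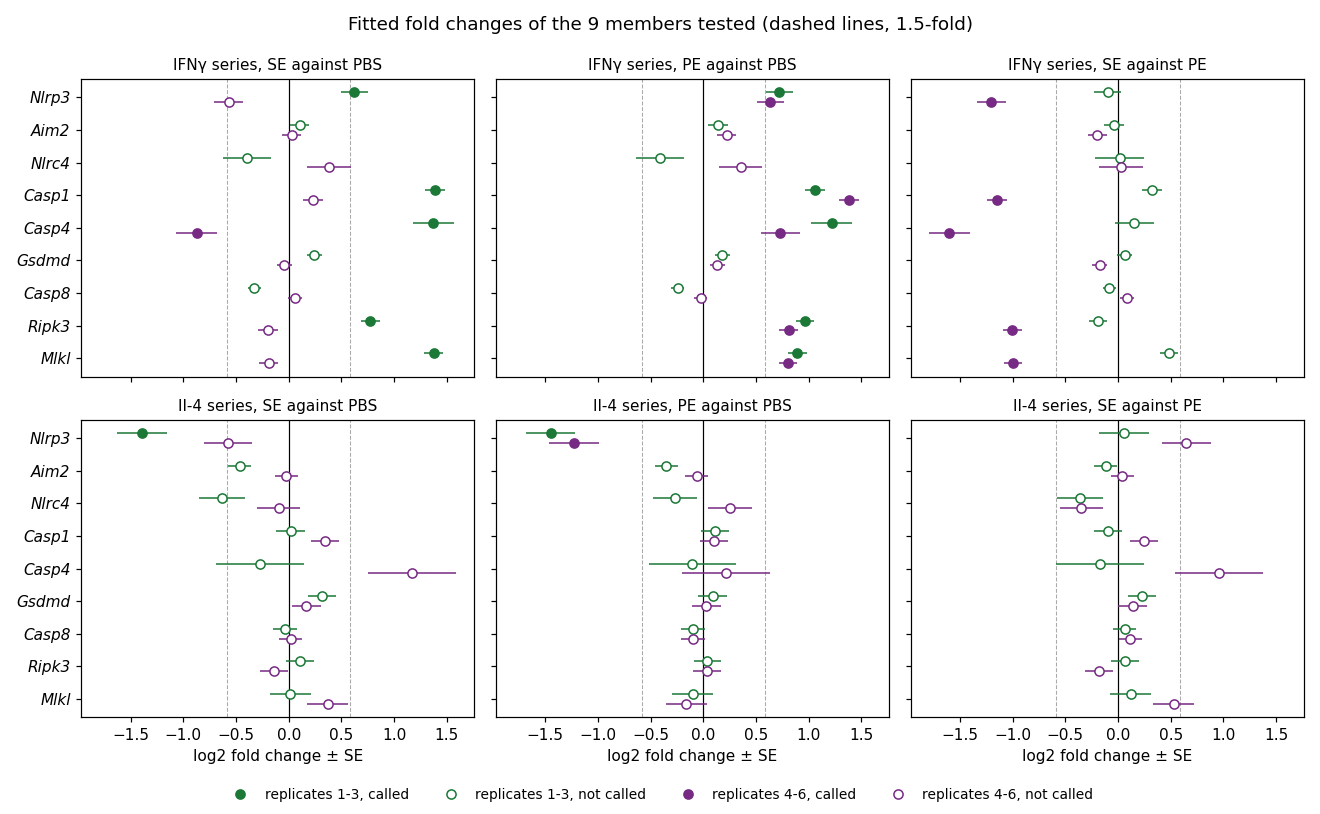
Fitted log2 fold changes ± SE of the 9 members tested, by series and contrast, for replicates 1–3 (green) and replicates 4–6 (purple); filled points were called and dashed lines mark a fold of 1.5. In the IFNγ series the 2 label sets lie together for 65–79*PE against PBS and part for both contrasts with 65–79*SE; in the Il-4 series Nlrp3 holds the only called points.

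A single member was called under M2 polarizing conditions. Nlrp3 fell with both peptides in replicates 1–3, where the PBS libraries held 31.5, 28.9 and 24.5 CPM, the 65–79*SE libraries 9.36, 9.28 and 13.7 CPM and the 65–79*PE libraries 9.48, 11.5 and 10.2 CPM. No peptide library reached the lowest PBS library. The log2 fold changes were -1.39 ± 0.23 and -1.45 ± 0.23, folds of 0.381 and 0.366 (edgeR adjusted p = 0.0016 for each). Replicates 4–6 held 40.2, 27.7 and 19.0 CPM in PBS, 25.6, 17.5 and 15.0 CPM with 65–79*SE and 12.5, 11.9 and 12.7 CPM with 65–79*PE. Here 65–79*SE overlapped PBS and 65–79*PE did not. Against PBS, 65–79*PE gave -1.23 ± 0.23 (edgeR adjusted p = 0.0043) and 65–79*SE gave -0.58 ± 0.23 (edgeR adjusted p = 0.16). Calls were lost in fits with fewer libraries. The fall with 65–79*SE in replicates 1–3 was -1.28 (edgeR adjusted p = 0.076) without replicate 2, and that with 65–79*PE in replicates 4–6 was -1.23 (edgeR adjusted p = 0.099) without replicate 5. In these fits 105 and 113 of all genes were called, in place of 875 and 508. Over all fits that left out a replicate number, the 2 values ran from -1.70 to -1.21 and from -1.46 to -0.90. Nlrp3 thus moved in opposite directions in the 2 series wherever it was called against PBS, up under IFNγ and down under Il-4.

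Counted over the members, 65–79*SE against PBS called 0 higher and 1 lower in replicates 1–3, beside 1.97% and 4.2% of the 14183 genes tested, and 0 in replicates 4–6 by edgeR and DESeq2, with 3 at an unadjusted p under 0.05, beside 1.23% higher and 0.973% lower. For 65–79*PE against PBS it was 0 higher and 1 lower in each label set, beside 1.52% and 1.95% of all genes in replicates 1–3 and 1.26% and 2.32% in replicates 4–6. The difference between label sets passed for 0 members by edgeR with 65–79*SE, with 3 at an unadjusted p under 0.05 and beside 4.39% of all genes, and for 0 members by edgeR and DESeq2 with 65–79*PE, with 0 at an unadjusted p under 0.05 and beside 0.00705% of all genes. Libraries of the same number deviated together across all groups in replicates 1–3 of this series, and across PBS and 65–79*PE in replicates 4–6. With the replicate block, 763 genes in replicates 1–3 and 780 in replicates 4–6 were called for 65–79*PE against PBS, in place of 493 and 508, and the count of members stayed at 1 in each. In the fit with the replicate block, 2 members differed between label sets for 65–79*SE, Nlrp3 by 0.84 (adjusted p = 0.041) and Aim2 by 0.45 (adjusted p = 0.027), beside 18.9% of all genes. The block assumes a pairing that 65–79*SE and PBS did not show in replicates 4–6 (r from -0.150 to 0.255 for the same number). DESeq2, without the block, called 1 member for this difference, Aim2 at 0.44 (adjusted p = 0.048), beside 10.6% of all genes.

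No member was called between the peptides in the Il-4 series. Of all genes, 0% were called higher and 0% lower by edgeR in either label set and 0% differed between the sets, with 570 genes at an unadjusted p under 0.05 in replicates 1–3 and 1321 in replicates 4–6, and DESeq2 called 0 and 46. Among the members, 0 had an unadjusted p under 0.05 in replicates 1–3 and 3 had one in replicates 4–6. Those 3 were Nlrp3 at 0.65, Casp4 at 0.96 and Mlkl at 0.53, all higher with 65–79*SE, and DESeq2 called 0 members in either set. The same 65–79*SE library, replicate 4, was the highest of its group in that label set for each of them, at 25.6, 158 and 30.2 CPM. When a replicate number was left out, the values were as low as 0.40, 0.17 and 0.15 in the same order. The intervals of the difference in replicates 1–3, 2 SE to either side, ran from -0.42 to 0.53 for Nlrp3, -0.36 to 0.18 for Casp1 and -1.01 to 0.67 for Casp4, so a difference of 1.5-fold in Casp4 could not be seen at this spread.

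**Figure D4:**
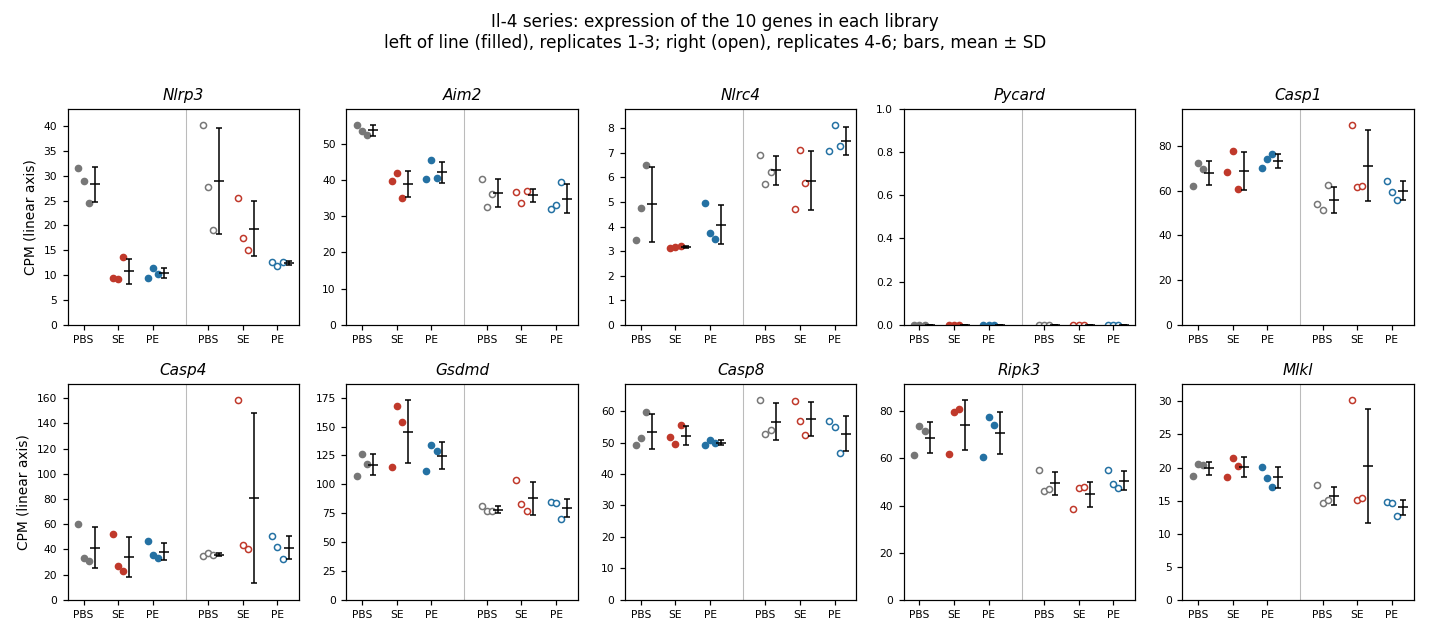
CPM of each of the 10 genes in each of the 18 libraries of the Il-4 series, drawn as for the IFNγ series. Nlrp3 is lower in the peptide libraries, Casp4 has 1 library at 158 CPM with 65–79*SE in replicates 4–6, and Pycard is at 0 in all 18 libraries.

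Casp4 was again the member with the widest spread. The first library of each group in replicates 1–3 stood above the other 2, at 59.9 against 33.2 and 30.4 CPM in PBS, 52.0 against 27.1 and 23.0 CPM with 65–79*SE and 46.3 against 35.5 and 33.1 CPM with 65–79*PE. In replicates 4–6 the first 65–79*SE library held 158 CPM and the other 2 held 43.5 and 40.4 CPM. The same library was the highest of its label set for Casp1 at 89.5 CPM and for Mlkl at 30.2 CPM. The log2 fold change of 1.17 ± 0.42 for 65–79*SE against PBS did not pass (edgeR adjusted p = 0.13), whereas the fit without the low count filter called it at 1.16 (adjusted p = 6.0e-13). It depended on single libraries, since leaving out each replicate number in turn gave 0.23 to 1.50 (edgeR adjusted p from 0.081 to 0.85).

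Aim2 fell with 65–79*SE in replicates 1–3 by less than a fold of 1.5. It was at 55.3, 53.7 and 52.5 CPM in PBS, 39.7, 42.1 and 35.0 CPM with 65–79*SE and 40.5, 45.6 and 40.6 CPM with 65–79*PE. No peptide library overlapped PBS, and the log2 fold changes were -0.47 ± 0.11 (edgeR adjusted p = 0.011) and -0.35 ± 0.11 (edgeR adjusted p = 0.060). All 9 libraries of replicates 4–6 lay between 32.1 and 40.4 CPM. Nlrc4 ranged from 3.12 to 8.14 CPM, and its value of -0.63 for 65–79*SE in replicates 1–3 (edgeR adjusted p = 0.058) became -0.82 (adjusted p = 0.018) without replicate 1 and -0.61 (adjusted p = 0.040) in DESeq2. The log2 fold changes of Casp1, Casp8, Gsdmd, Ripk3 and Mlkl against PBS lay between -0.16 and 0.37 and none was called.

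Genes of the same pathways, on lists of 9 to 16 genes, were counted beside the members with the same test and thresholds. Of all genes of the IFNγ series, 11% were higher and 10.2% lower with 65–79*SE in replicates 1–3, then 0.873% and 1.16% in replicates 4–6. With 65–79*PE it was 8.38% and 10.1%, then 6.4% and 4.77%. In the Il-4 series it was 1.97% and 4.2%, then 1.23% and 0.973%, with 65–79*SE. With 65–79*PE it was 1.52% and 1.95%, then 1.26% and 2.32%. Whether a list departs from these shares was not tested. The list of AIM2-like receptors, interferon-inducible DNA sensors on chromosome 1 that are related to Aim2, had the most called genes. Aim2 itself was left off this list because it is a member. Of 13 listed, 11 were tested in the IFNγ series. In replicates 1–3, 9 of them were higher than PBS in the libraries of each peptide. In replicates 4–6, 8 were higher with 65–79*PE, and with 65–79*SE 0 were higher and 3 lower. Each of those 3 lost its call without at least 1 of the replicate numbers. Ifi214 rose from 0.221 to 4.99 CPM (means, n = 3 and 3) with 65–79*SE in replicates 1–3, a log2 fold change of 4.49, Ifi209 by 4.29 and Ifi208 by 4.04. Aim2 itself was at 0.10 in that contrast. These genes are near copies of one another, and the unique alignments kept by the authors may divide their reads unevenly. Of 8 tested in the Il-4 series 1 was called in any contrast, Ifi207 at -0.59 with 65–79*SE in replicates 1–3.

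Among 15 other sensors and cofactors, 12 were tested in the IFNγ series, of which 1 was called higher and 3 lower with each peptide in replicates 1–3. Over all genes, 11% were higher and 10.2% lower with 65–79*SE there, and 8.38% and 10.1% with 65–79*PE. With 65–79*PE in replicates 4–6 it was 3 higher and 1 lower, and with 65–79*SE 0 either way. Nod1, a cytosolic sensor of bacterial peptidoglycan, rose in replicates 1–3 by 2.35 and 2.21 with the SE and the PE peptide, and by 3.29 with 65–79*PE in replicates 4–6. Nlrp10 had log2 fold changes of -2.24 and -1.72 in replicates 1–3 and -1.21 with 65–79*PE in replicates 4–6, all called. Txnip, which binds NLRP3 under oxidative stress, fell by 1.20 and 0.84 in replicates 1–3, and its values in replicates 4–6 were 0.19 and -0.11. It also fell in the Il-4 series, by 0.82 with each peptide in replicates 1–3 and by 0.86 with 65–79*SE in replicates 4–6, where 65–79*PE gave -0.47. There 11 were tested, and Nod2 at -0.73 and Naip6, a receptor for bacterial ligands that acts through NLRC4, at -0.67 were called with 65–79*SE in replicates 1–3.

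Of 13 other caspases, gasdermins and the membrane rupture gene Ninj1, 7 were tested in each series. With IFNγ, 2 were higher and 1 lower with 65–79*SE in replicates 1–3, beside 11% and 10.2% of all genes. With 65–79*PE 1 was higher in each label set, beside 8.38% and 6.4% of all genes. Ninj1, whose protein tears the membrane after pores have formed, rose by 0.69 with 65–79*SE in replicates 1–3 from a mean of 209 to 338 CPM, and Casp9, the apoptosome caspase, fell by 0.59 there. Casp6, an executioner caspase, was the one gene of this list called in the Il-4 series, and it rose in all 4 contrasts against PBS, by 0.90 and 0.93 with 65–79*SE and by 0.97 and 0.83 with 65–79*PE.

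Of the cytokines that caspase-1 matures, Il1b was sparse and Il18 was expressed at a low level. Il1b and Il18, named here after their values were seen, did not behave alike. Il1b had a mean of 0.0695 CPM in PBS replicates 1–3, 0.786 with 65–79*SE and 0.211 with 65–79*PE, of which the PBS mean was under the limit that a count of 0 allows. Its fitted log2 fold change for 65–79*SE was 3.44 ± 0.68 (edgeR adjusted p = 3.5e-04), a size that at such a PBS level depends on the prior count of the fit. Il18 was at 3.69, 3.80 and 4.21 CPM in the same order and was not called in any contrast. Of 9 genes on this list 7 were tested in the IFNγ series, with 5 higher with 65–79*SE and 2 higher and 1 lower with 65–79*PE in replicates 1–3, and 2 higher with 65–79*PE in replicates 4–6. Il18bp, the secreted inhibitor of IL-18, rose most, from 0.520 to 17.5 CPM with 65–79*SE and to 13.2 CPM with 65–79*PE in replicates 1–3, and from 1.47 to 12.7 CPM with 65–79*PE in replicates 4–6. Il1r1, the receptor for IL-1, rose by 2.37 and 2.85 in replicates 1–3. Il1rn, the receptor antagonist, rose by 0.81 with 65–79*SE and fell by 0.86 with 65–79*PE in replicates 1–3, and the SE peptide exceeded the PE peptide by 1.67 ± 0.15 (edgeR adjusted p = 6.2e-07) there. In replicates 4–6 the value was 0.50 ± 0.15 (edgeR adjusted p = 0.015). That contrast sets 65–79*SE libraries without the IFNγ response against 65–79*PE libraries with it, so peptide and response cannot be told apart. Of 5 tested in the Il-4 series 1 was called, Il1rap at 0.71 with 65–79*PE in replicates 4–6.

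All 16 genes of the death receptor complex and of necroptosis were tested. With 65–79*SE in replicates 1–3 of the IFNγ series 3 were higher and 0 lower, and with 65–79*PE it was 3 and 2 in replicates 1–3 and 2 and 1 in replicates 4–6, where 65–79*SE left 0 higher and 2 lower. Over all genes in replicates 1–3, 11% were higher and 10.2% lower with 65–79*SE, and 8.38% and 10.1% with 65–79*PE. Zbp1, the nucleic acid sensor that recruits RIPK3, rose most of all pathway genes counted, from 1.20 to 56.2 CPM with 65–79*SE and to 29.9 CPM with 65–79*PE in replicates 1–3, and from 1.82 to 34.3 CPM with 65–79*PE in replicates 4–6. In the 65–79*SE libraries of replicates 4–6 it was at 0.879 CPM, a log2 fold change of -1.08 (edgeR adjusted p = 0.049), which was -0.45 (adjusted p = 0.60) without replicate 6. Between the peptides Zbp1 was also higher with 65–79*SE in replicates 1–3, by 0.91 ± 0.15 (edgeR adjusted p = 2.8e-04). Ticam1, which encodes the TRIF adaptor, rose by 1.25 and 0.62 in replicates 1–3, and the death receptor gene Fas by 1.25 and 1.13 there and by 1.19 with 65–79*PE in replicates 4–6. In the Il-4 series the called genes were Xiap at -0.84 with 65–79*SE in replicates 1–3, and Fas at 1.27 and Tnfaip3 at 0.90 with 65–79*SE in replicates 4–6. Fas was at 20.6, 8.54 and 7.78 CPM there against 5.11, 5.67 and 4.55 CPM in PBS, and its first library is the one that held 158 CPM of Casp4. Without replicate 4 the value of Fas was 0.70 (adjusted p = 0.12), that of Tnfaip3 was 0.74 (adjusted p = 0.033) and that of Txnip was -0.42 (adjusted p = 0.14).

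The calls of these pathway genes were less secure in the Il-4 series than their number shows. Of 14 calls against PBS, 5 were kept when each replicate number was left out in turn, those of Casp6 in its 4 contrasts and that of Xiap. In the IFNγ series 56 of 69 calls were kept. Among the values named above, Ticam1 with 65–79*PE in replicates 1–3 was 0.48 (adjusted p = 0.0010) and Casp9 with 65–79*SE was -0.54 (adjusted p = 4.1e-04) without replicate 1, both under the fold of 1.5.

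The genes whose pattern was most like that of a member were taken by the correlation of log2 CPM over the 18 libraries of the IFNγ series, among 9098 genes with a mean of at least 10 CPM. These are descriptions, since the libraries share groups, label sets and the PBS controls. Casp1 ran closest to Clec7a (r = 0.987), Cd36 and Gbp9, and Casp4 to Cd40 (r = 0.984), Cth and Slc1a4. Ripk3 ran closest to H2-Q6 (r = 0.988), Cpsf3l and Psme2, and Mlkl to Ifit2 (r = 0.978), Ifi202b and Clec7a. For Nlrp3 they were Ciart (r = 0.965), Rnd1 and Inpp5b. Gsdmd was closest to Kxd1 (r = 0.987), Clic1 and Spout1, Casp8 to Ppp1cc (r = 0.958), Ap3m1-ps and Kdelc2, Nlrc4 to Kif20b (r = 0.959), Aasdhppt and Usp1, and Aim2, with the weakest neighbours, to Slc25a12 (r = 0.841), Gm5431 and Aff1. Over the Il-4 libraries the closest gene to Casp4 was Ifi203 (r = 0.966), and to Nlrp3 it was Jdp2 (r = 0.941).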

How the data were processed

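RNA-seq was measured in 36 libraries, grouped by their labels. A stranded mRNA kit and single-end reads of 100 bases were used by the authors, who ran featureCounts on unique alignments with GENCODE M12 of GRCm38.p5 (per the labels and methods); the aligner and strand option are not given in the sources used here. The deposited values are whole-number counts, not normalized. Positions and exon lengths come from GENCODE M21 of GRCm38 by symbol (95.25% of names matched), promoters from RefSeq.

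In R 4.3.3, each series was fitted with the edgeR 4.0.16 quasi-likelihood test over its 18 libraries, with 6 cells of group by label set, filterByExpr and TMM, on 16845 (IFNγ) and 14183 (Il-4) genes. CPM values are TMM-scaled. A call needed a Benjamini-Hochberg adjusted p under 0.05 and a fold over 1.5; the difference between label sets needed the adjusted p alone. The procedure was tested on simulated data. A few items are not reported here. Members and lists were chosen with earlier results of these data known. All 10 members are named; a listed pathway gene is named when it was called, averaged at least 1 CPM and was among the 3 of its list with the largest change against PBS. The authors describe the libraries of a group as biological replicates that come from more than one experiment; which library belongs to which experiment is not given in the sources used here. No 2 libraries were alike within counting noise (lowest chi-square per degree of freedom 5.23).

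Same-numbered libraries deviated together in all 9 pairs of replicates 1–3 of the Il-4 series (r from 0.108 to 0.516, over 0.1 in each), and in the 3 pairs of PBS with 65–79*PE in replicates 4–6 (r from 0.193 to 0.560). In replicates 1–3 the median was 0.223, against -0.177 for the 18 pairs of different number. Of those 18, 4 were also over 0.1, up to 0.285, so a pairing by number is not certain. As alternatives, the fit used RLE size factors, no filter, DESeq2 1.42.0, at least 10 counts in every library, protein-coding genes only, a replicate block, each label set alone, the label sets pooled, and leaving out each replicate number.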

Additional observations from a re-analysis of the deposited data

Results flagged for a closer look

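A total of 3 values stood apart from the other 5 libraries of their group by the Dixon criterion at 95%, and all were of Casp4. In the PBS group of the IFNγ series, replicate 6 held 72.7 CPM and the others 21.8 to 39.0 CPM. In the PBS group of the Il-4 series, replicate 1 held 59.9 CPM and the others 30.4 to 37.1 CPM. In the 65–79*SE group of the Il-4 series, replicate 4 held 158 CPM and the others 23.0 to 52.0 CPM. Of 54 groups examined 3 were flagged, where chance flags about 1 in 20.

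A total of 12 contrasts of the IFNγ series differed between the label sets by a test of the difference itself (edgeR, replicates 4–6 minus replicates 1–3, log2 scale). For 65–79*SE against PBS the difference was -2.25 for Casp4, -1.57 for Mlkl, -1.19 for Nlrp3, -1.15 for Casp1, -0.97 for Ripk3 and -0.28 for Gsdmd, and 0.39 for Casp8. For 65–79*SE against 65–79*PE it was -1.76 for Casp4, -1.48 for Mlkl, -1.47 for Casp1, -1.10 for Nlrp3 and -0.81 for Ripk3. All of them include the 65–79*SE libraries of replicates 4–6, whose mean for the IFNγ targets was at the level of PBS.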

How the results depend on the processing

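Of 240 repeats of the 18 counts of called members, 220 stayed within 1.5 times the reported count. With the label sets pooled, the IFNγ series gave 1 called member for 65–79*SE against PBS (5 in replicates 1–3) and 1 for 65–79*SE against 65–79*PE (0 in replicates 1–3, 5 in replicates 4–6), and Casp4 for 65–79*SE against PBS turned from -0.87 in replicates 4–6 to 0.34 (adjusted p = 0.53); pooling joins libraries with and without the IFNγ response. Fitted alone, replicates 4–6 gave 0 for 65–79*SE against PBS in place of 1. Leaving out replicates gave 0 to 2 for that count, 3 to 5 for 65–79*PE against PBS in replicates 4–6 and 0 to 1 for its difference between label sets, and in the Il-4 series 0 to 2 for 65–79*SE in replicates 1–3 and 0 to 1 for 65–79*PE in replicates 4–6. Without the low count filter, 1 member (Casp4) differed between label sets for 65–79*PE under IFNγ, and with Il-4 2 members were called for 65–79*SE against PBS and 2 against 65–79*PE in replicates 4–6 (0 and 0 with the filter), with 2 and 1 differing between label sets; the cause was not tested. Pooling called 1 (Nlrp3) for 65–79*SE against PBS in the Il-4 series, where replicates 4–6 called 0. DESeq2 called 2 in place of 1 for 65–79*SE in replicates 1–3 of the Il-4 series and 1 in place of 0 for its difference between label sets.

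The replicate block gave 2 in place of 0 for that difference and changed no other count of members by over 1.5 times. Same-numbered libraries did not all deviate together in the IFNγ series (r from -0.254 to 0.162 and -0.146 to 0.163 in the 2 label sets), nor did those of 65–79*SE in replicates 4–6 of the Il-4 series (r from -0.150 to 0.255 with PBS and -0.0179 to 0.567 with 65–79*PE), so they share only a number there.

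Of 2160 repeats of single values, 21 lost a call, 25 gained one and 1 reversed. Counts over all genes moved by over 1.5 times under at least 1 alternative in 12 of 18 comparisons. In the IFNγ series they ran from 70 to 536 (reported 343) for 65–79*SE against PBS in replicates 4–6, from 732 to 2435 (reported 1929) for the difference of 65–79*PE between label sets and from 569 to 1056 (reported 898) for 65–79*SE against 65–79*PE in replicates 1–3. In the Il-4 series they ran, for 65–79*SE against PBS, from 105 to 1646 (reported 875) and 60 to 893 (reported 313) in the 2 label sets and 0 to 2679 (reported 622) for their difference; for 65–79*PE from 92 to 763 (reported 493), 113 to 805 (reported 508) and 0 to 221 (reported 1); and for 65–79*SE against 65–79*PE from 0 to 19, 0 to 301 and 0 to 77 (reported 0 each). DESeq2 split the difference of 65–79*SE between label sets into 990 higher and 511 lower, against 492 and 130. Depth limits what the 36 libraries show of Pycard, all of them under 3 counts.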
